A study of Mus musculus with 18 samples.

Results

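The SLAM family is a set of receptors on the surface of blood cells, and the members described here are 7 receptor genes, Slamf1, Slamf6, Slamf7, Cd48, Cd84, Ly9 and Cd244a, together with Sh2d1a, the gene of the adaptor protein SAP. They were chosen by name, as the genes of the family and its adaptor, with earlier results of these data known. All 8 were found among the 49671 gene models of the count files. Transcripts had been counted by RNA sequencing in CD8+ and CD4+ T cells isolated by flow sorting from tumors of B6 mice 12 days after B16f10-OVA cells, a melanoma line of mouse origin that makes ovalbumin, were placed under the skin. The 18 libraries make 6 groups of 3. All mice carried a floxed miR-155 gene. CD8 and CD4 cells of mice without Cre are called floxed, and those of mice with CD4cre are called deficient. In the treated groups the mice with CD4cre had also been injected in the abdomen on days 3, 6 and 9 with anti-CTLA-4 and anti-PD-1/PD-L1. The CD4 promoter that drives this Cre is active during T cell development, so the deletion covers CD8 as well as CD4 T cells. Each library is a pool of cells from 2 to 3 tumors. Treated floxed mice were not analysed here, so the antibodies were compared in deficient cells alone.

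Most SLAM receptors bind the same receptor on a neighbouring cell, while the protein of Cd244a (2B4) binds that of Cd48. Motifs in the tails of several of these receptors recruit SAP, which brings in the kinase Fyn, or the phosphatases encoded by Ptpn6, Ptpn11 and Inpp5d. In T cells of tumors and chronic infection, Slamf6 (Ly108) is used as a marker of the stem-like exhausted cells that carry the transcription factor TCF1, and Cd244a as one of the terminally exhausted cells. Slamf7 (CRACC) is found on cytotoxic cells, activated T cells and macrophages.

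The 7 receptor genes lie side by side on chromosome 1 (GRCm38), from 171559193 to 171953170, a span of 394.0 kb that holds 19 gene models, and Sh2d1a lies on chromosome X, from 42502453 to 42529330. From the lower to the higher coordinate the receptors are Cd244a (ENSMUSG00000004709), Ly9 (ENSMUSG00000004707), Slamf7 (ENSMUSG00000038179), Cd48 (ENSMUSG00000015355), Slamf1 (ENSMUSG00000015316), Cd84 (ENSMUSG00000038147) and Slamf6 (ENSMUSG00000015314). Sh2d1a is ENSMUSG00000005696. Apart from the receptors, 2 models of the stretch had enough counts to be tested, Gm10521 and Gm37065. Gm37065 lies on the opposite strand across the 5′ end of Slamf6 and was higher in deficient than in floxed CD8 cells (log2 fold change 3.00, edgeR adjusted p = 0.0377). The model of Cd244a overlaps Ly9 on the opposite strand. The counting used strand, so reads of the 2 genes were assigned apart.

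Because the deleted gene makes a microRNA, the 3′ UTRs of the members were searched for matches to its seed, the bases that pair with targets. The mature miR-155-5p is shown with bases 2 to 8, the seed, in capitals (RefSeq, GRCm38.p6, chr16:84714143-84714165, plus strand). The sites below it are from the annotated 3′ UTRs (GENCODE M21, GRCm38, plus strand) with 10 bases on either side, and the capitals mark the match.
mmu-miR-155-5p: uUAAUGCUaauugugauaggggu
Slamf6, chr1:171951412-171951418: gaccaccttgGCATTAAacatggaaac
Cd84, chr1:171852397-171852403: tcaatttgtaAGCATTAttatgacatt
Cd84, chr1:171853028-171853035: agcaccggacAGCATTAAtcacatatat

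The search was for AGCATTA (pairs with bases 2 to 8), GCATTAA (bases 2 to 7 followed by A) and AGCATTAA, in which both overlap, on the transcript's strand. Slamf6 holds its match in the 3′ UTR of 1 of its 2 coding transcripts, the longer one of 5729 bases, whose 3′ UTR is 4480 bases long. The shorter transcript of 2485 bases has none. Both Cd84 matches lie in the 3′ UTR of a transcript of 3434 bases, and the other 3 coding transcripts of Cd84 hold none. No coding transcript of the other 6 members held a match. As background, a match was found in the longest 3′ UTR of 2654 among 21037 genes (12.6%), at a median length of 960 bases. Counts per gene do not separate transcripts, so the share of reads from the transcripts with a match was not measured. A match is a description of the letters and not evidence that the site is used. The levels of Slamf6 and Cd84 in deficient and floxed cells are given below.

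The libraries held 3.2 to 11.65 M (mega) counts, and values are given as CPM (counts per 1 M counts, on edgeR's TMM scale), on which 3 counts are worth 0.258 to 1.24 CPM. Members had between 49 and 4673 counts in a library. The primary transcript of the deleted gene, Mir155hg, was at 4.88 to 20.5 CPM in floxed and at 0 to 1.90 CPM in deficient and treated libraries. Cd4 was at most 3.14 CPM in CD8 libraries. Cd8a was at 14.6 to 150 CPM in floxed CD4 libraries, against 624 to 1449 CPM in CD8 libraries and 0.136 to 17.5 CPM in the other CD4 libraries. Ribosomal-like transcripts took 5.82% of counts in floxed CD8 replicate 1, 25.6% in treated CD8 replicate 2 and 11.8% in deficient CD4 replicate 3, and 1.23% to 3.46% elsewhere. Markers of other cells were present. The summed level of 13 macrophage and monocyte markers in CD8 cells was 712 to 2051 CPM (floxed), 1527 to 3048 CPM (deficient) and 1092 to 1235 CPM (treated), and 12909 to 26322, 4544 to 6275 and 4484 to 6320 CPM in the CD4 groups. That of 8 melanoma markers was, in the same order, 151 to 190, 1335 to 3023 and 349 to 1650 CPM for CD8 and 157 to 632, 1789 to 4202 and 434 to 1925 CPM for CD4 cells. In such bulk samples, fewer cells that express a gene and less RNA per cell cannot be told apart.

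To compare members with each other, CPM was divided by the length of all annotated exons of the gene. In floxed CD8 cells Cd48 was the most abundant member, at 241 ± 38.9 CPM per kb (SD, n = 3). Ly9 followed at 37.9 ± 3.44, Slamf7 at 24.5 ± 3.22, Cd244a at 15.6 ± 1.99 and Cd84 at 14.99 ± 1.18 CPM per kb. Slamf1 (9.71 ± 3.31), Sh2d1a (9.37 ± 1.73) and Slamf6 (3.33 ± 0.102) were the lowest in CPM per kb. The exons of Slamf6 add up to 10832 bases, longer than either of its coding transcripts, which lowers its value per kb. In floxed CD4 cells the order was Cd48 (285 ± 33.3 CPM per kb), Ly9 (58.7 ± 4.70), Cd84 (52.9 ± 13.5), Slamf7 (46.6 ± 5.15), Slamf1 (11.03 ± 3.00), Slamf6 (8.32 ± 0.742), Sh2d1a (6.50 ± 0.886) and Cd244a (5.62 ± 1.87). Cd244a was thus level with Cd84 in the middle of the order in floxed CD8 cells and at the foot of it in floxed CD4 cells. In deficient CD8 cells it was at 5.22 ± 0.975 CPM per kb, with only Slamf1 lower (4.79 ± 0.840).

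**Figure D1:**
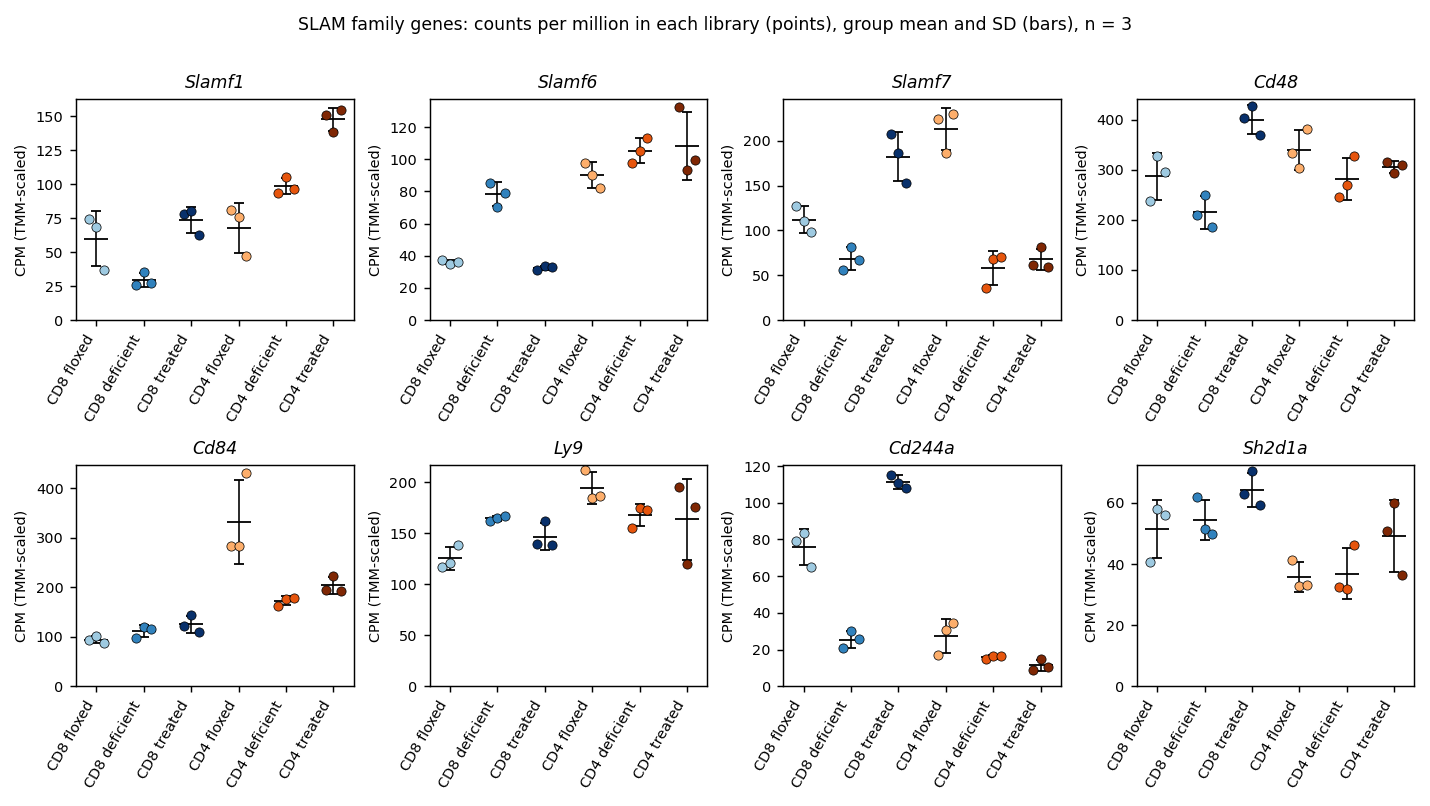
Each panel shows 1 gene; the vertical axis is CPM from 0, points are libraries, and the dash and bar are the group mean and SD (n = 3). Slamf6 and Cd244a stand at opposite ends in the 3 CD8 groups, and Slamf7 is highest in treated CD8 and floxed CD4 cells.

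Each receptor had its own order over the 6 groups. Slamf1 ran from treated CD4 (148 ± 8.43 CPM, SD, n = 3) and deficient CD4 cells (98.3 ± 5.92) through treated CD8 (73.5 ± 9.76), floxed CD4 (67.9 ± 18.5) and floxed CD8 cells (59.8 ± 20.4), whose libraries overlapped, to deficient CD8 cells (29.5 ± 5.17). Slamf6 was highest in treated (108 ± 21.2 CPM), deficient (105 ± 7.88) and floxed CD4 cells (90.1 ± 8.04), which overlapped each other, followed by deficient (78.3 ± 7.53), floxed (36.0 ± 1.10) and treated CD8 cells (32.4 ± 1.24). Deficient CD8 cells were thus the CD8 group whose Slamf6 reached into the range of CD4 cells.

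Cd244a had nearly the opposite order, from treated (111 ± 3.72 CPM) and floxed CD8 cells (75.8 ± 9.68) through floxed CD4 (27.4 ± 9.11) and deficient CD8 cells (25.4 ± 4.76), which overlapped, to deficient (15.9 ± 0.997) and treated CD4 cells (11.42 ± 3.04). Slamf7 was highest in floxed CD4 (213 ± 23.6 CPM) and treated CD8 cells (182 ± 27.5), which overlapped, then came floxed CD8 cells (112 ± 14.7). Deficient CD8 (68.5 ± 12.9), treated CD4 (67.6 ± 12.2) and deficient CD4 cells (58.0 ± 19.2) were lower and overlapped. For Cd84 the 3 CD4 groups (331 ± 84.9, 203 ± 16.6 and 173 ± 8.98 CPM in floxed, treated and deficient cells) were above all CD8 groups (94.0 ± 7.40 to 125 ± 17.0). Ly9, Cd48 and Sh2d1a varied least, with group means of 125 to 194, 215 to 400 and 35.8 to 64.2 CPM.

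The first comparison asked how the family differs between deficient and floxed CD8 cells. Slamf6 was higher in deficient cells, and Slamf1, Slamf7, Cd48 and Cd244a were lower. By edgeR's quasi-likelihood test across all 14080 tested genes, with Benjamini-Hochberg adjustment and a call at an adjusted p under 0.05, 1 member was called higher and 4 lower, where 9.65% of all genes were called higher and 9.61% lower. The median log2 fold change of the 8 members was -0.17, against -0.01 for all genes. These p-values measure the spread between pools, and nothing in the labels tells if CD8 and CD4 pools were made from the same mice.

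Slamf6 was at 37.1, 34.9 and 36.1 CPM in the floxed CD8 libraries and at 85.3, 70.4 and 79.3 CPM in the deficient ones. The groups lay far apart, with every deficient library above every floxed one. The log2 fold change was 1.12 ± 0.14 (SE, a fold of 2.18, edgeR adjusted p = 1.9e-05). Slamf6 was the 1 member whose call in the CD8 deletion was kept with the macrophage and melanoma marker sums as covariates, at a log2 fold change of 1.20.

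Cd244a, the receptor for Cd48, was at 79.0, 83.6 and 65.0 CPM in floxed and at 20.6, 30.1 and 25.5 CPM in deficient CD8 cells. Its groups did not overlap either, and the order was the reverse of that of Slamf6. The fitted change was -1.58 ± 0.21 on the log2 scale (2.99-fold lower, edgeR adjusted p = 3.95e-05).

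Slamf1 (CD150), a receptor that binds itself, was at 74.3, 68.6 and 36.5 CPM in floxed and at 25.6, 35.4 and 27.6 CPM in deficient CD8 cells. Floxed replicate 3 nearly met the highest deficient library, and the other 2 floxed libraries were well above. The log2 fold change was -1.02 ± 0.22 (edgeR adjusted p = 0.00342). Slamf7 was at 127, 111 and 97.7 CPM in floxed and at 56.3, 82.0 and 67.3 CPM in deficient CD8 cells, again without overlap. It fell by 0.71 ± 0.21 on the log2 scale (edgeR adjusted p = 0.0221).

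Cd48, the abundant ligand of the Cd244a receptor, was at 237, 328 and 296 CPM in floxed and at 210, 249 and 185 CPM in deficient CD8 cells. The lowest floxed library lay below the highest deficient one. Its change of -0.42 ± 0.14 on the log2 scale was just past the threshold (edgeR adjusted p = 0.0415). The calls of Slamf7 and Cd48 did not hold in every fit that left out 1 library. That of Slamf7 was lost without floxed replicate 1 (log2 fold change -0.61), deficient replicate 1 (-0.58) or deficient replicate 3 (-0.70), and that of Cd48 without floxed replicate 2 (-0.31) or 3 (-0.40) or deficient replicate 1 (-0.40) or 3 (-0.32). Over the 15 alternative settings the adjusted p ran from 0.000343 to 0.853 for Slamf7 and from 0.0102 to 0.606 for Cd48.

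Ly9, another receptor that binds itself, was at 117, 120 and 138 CPM in floxed and at 162, 165 and 167 CPM in deficient CD8 cells. Its libraries did not overlap, but the log2 difference of 0.39 ± 0.14 missed the threshold (edgeR adjusted p = 0.0563), and 5 of the 15 alternative settings called it higher. Over all 15 the adjusted p ran from 0.0316 to 0.908. Cd84 (0.23 ± 0.15, adjusted p = 0.305) and the adaptor gene Sh2d1a (0.08 ± 0.19, adjusted p = 0.833) were not called by edgeR. Sh2d1a was at 51.6 ± 9.52 and 54.4 ± 6.64 CPM (SD, n = 3 each), so the spread between libraries was larger than the difference.

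Markers of other cells moved with this comparison. The melanoma marker sums of floxed and deficient CD8 cells did not overlap, and 8 of 8 melanoma and 5 of 13 macrophage genes were called higher in deficient cells. The summed level of 9 dendritic cell markers was 233 to 260 CPM in floxed and 525 to 1017 CPM in deficient CD8 cells. That of 7 T cell markers was 3449 to 4202 CPM in floxed and 2346 to 2562 CPM in deficient ones, so it was lower in the same comparison as Slamf1, Slamf7, Cd48 and Cd244a. Of the 7 genes, 2 were called lower. Mean Cd8a was 1305 CPM in floxed and 681 CPM in deficient CD8 cells, and mean Cd8b1 656 and 388 CPM, which made up most of the difference in the sum. With both marker sums as covariates the log2 fold change was -0.59 for Slamf1, -0.29 for Slamf7, -0.41 for Cd48 and -0.98 for Cd244a, and none of these 4 was called. Over all genes that fit called 121, against 2712 without covariates. The part of dendritic cells and of the T cell share in the result was not tested.

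**Figure D2:**
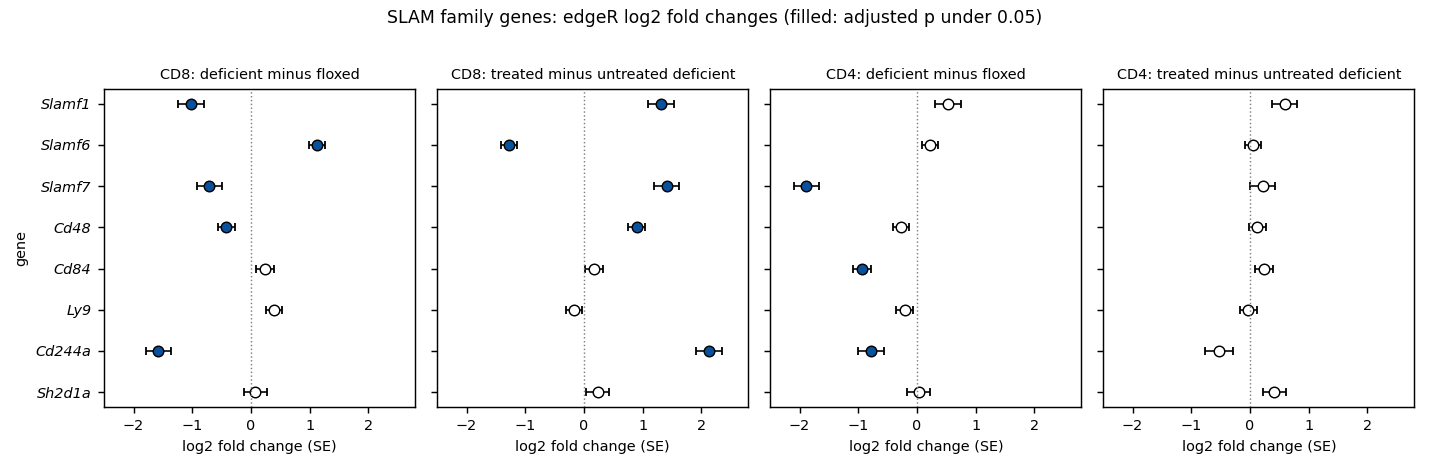
The horizontal axis is the edgeR log2 fold change of each member with its SE, 1 panel for each deletion or antibody comparison; filled points passed an adjusted p of 0.05. In CD8 cells the 5 called members move in opposite directions in the deletion and with the antibodies, and no member is called with the antibodies in CD4 cells.

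Deficient CD4 cells held less Slamf7, Cd84 and Cd244a than floxed ones, and no member was called higher. Of all tested genes 4.61% were called higher and 7.06% lower in this comparison, and 3 of 8 members lower. The median log2 fold change of the members was -0.24, against 0.01 for all genes.

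Slamf7 was at 224, 186 and 230 CPM in floxed and at 35.8, 68.3 and 69.8 CPM in deficient CD4 cells. All floxed libraries were above all deficient ones by a wide margin. The log2 fold change was -1.89 ± 0.22 (3.70-fold lower, edgeR adjusted p = 3.24e-05), and leaving out 1 library at a time kept it between -2.04 and -1.63.

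Cd84, a receptor that binds itself and is also found on myeloid cells, was at 283, 282 and 430 CPM in floxed and at 163, 177 and 179 CPM in deficient CD4 cells. Floxed replicate 3 was the highest, and that library also held the highest macrophage marker sum, 26322 CPM. The groups did not overlap, and the log2 fold change was -0.94 ± 0.15 (1.92-fold lower, edgeR adjusted p = 0.000502). Of the 2 members with a seed match shown above, Slamf6 was called higher in deficient CD8 cells only among the deletion comparisons, and Cd84 was called lower in deficient CD4 cells.

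Cd244a was low in CD4 cells, at 17.2, 30.5 and 34.6 CPM in floxed and 14.8, 16.3 and 16.7 CPM in deficient ones. Floxed replicate 1 nearly met the deficient libraries. Its log2 fold change of -0.78 ± 0.22 was called (edgeR adjusted p = 0.0271). The call was lost in 5 of the 6 fits that left out 1 library, namely floxed replicate 2 (-0.68) or 3 (-0.59) or deficient replicate 1 (-0.73), 2 (-0.80) or 3 (-0.81), and kept without floxed replicate 1 (-1.03). It was also lost without the 3 ribosomal-rich libraries (-0.79), and its adjusted p ran from 0.00274 to 0.967 over all 15 alternatives. Cd8a was at 14.6 to 150 CPM in floxed and 0.136 to 0.283 CPM in deficient CD4 libraries, and Cd244a was higher in CD8 cells. The part of cells with Cd8a in the call of Cd244a was not tested.

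Slamf6 stood at 97.9, 90.5 and 81.9 CPM in floxed and at 97.6, 105 and 113 CPM in deficient CD4 cells. These groups overlapped, and the log2 difference of 0.22 ± 0.13 was not called (edgeR adjusted p = 0.334). Slamf1 was at 81.1, 75.8 and 46.8 CPM in floxed and at 93.8, 105 and 96.1 CPM in deficient CD4 cells. Although these did not overlap, its log2 difference of 0.53 ± 0.22 did not pass (edgeR adjusted p = 0.134), and it was -0.32 with the marker sums as covariates. Cd48 (-0.27 ± 0.14), Ly9 (-0.21 ± 0.14) and Sh2d1a (0.03 ± 0.20) were not called.

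The macrophage marker sums of floxed and deficient CD4 cells did not overlap, and 11 of 13 macrophage genes were called lower and 6 of 8 melanoma genes higher in deficient cells. With both sums as covariates the log2 fold change was -1.37 for Slamf7, -0.29 for Cd84 and -0.12 for Cd244a, and no member was called. Over all genes that fit called 10, against 1643 without covariates. The part of macrophages in the fall of Slamf7 and Cd84 was otherwise not tested.

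**Figure D3:**
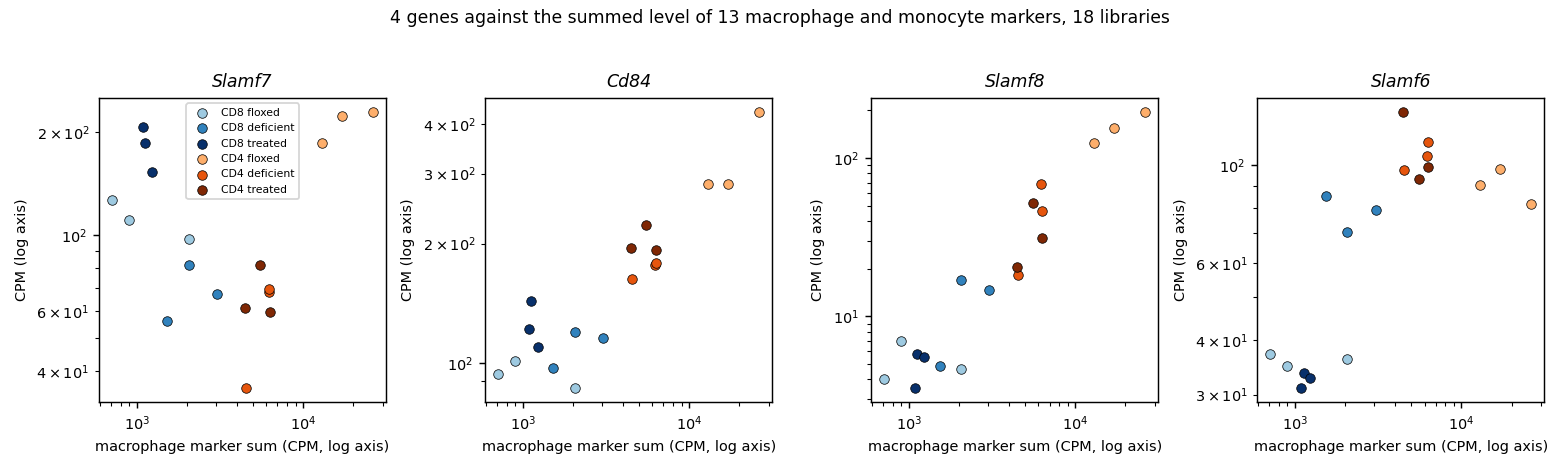
Each point is 1 of 18 libraries; both axes are CPM on log scales, the horizontal one the sum of 13 macrophage and monocyte markers. The floxed CD4 libraries are at the right end, with 12909 to 26322 CPM of markers, and have the highest Cd84 and Slamf8, while Slamf7 is also high in treated CD8 libraries that have 1092 to 1235 CPM of markers.

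Deletion effects in the 2 cell types were compared directly by the interaction term of the fit, where 6.89% of all genes were called higher and 4.72% lower. Of the members, 4 passed as different, 3 of them with a more positive effect in CD8 than in CD4 cells. Cd84 differed by 1.17 ± 0.21 on the log2 scale (edgeR adjusted p = 0.000971), Slamf7 by 1.18 ± 0.30 (0.0127) and Slamf6 by 0.90 ± 0.19 (0.00366). Slamf1 differed in the other direction, by -1.55 ± 0.31 (0.00262). With the marker sums as covariates these differences were 0.83, 1.07, 1.12 and -0.27, and none was called. Over all genes that fit called 157, against 1634 without covariates.

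With the antibodies, the CD8 pattern ran the other way. Slamf1, Slamf7, Cd48 and Cd244a were higher in treated than in untreated deficient CD8 cells, and Slamf6 was lower. Of all tested genes 8.25% were called higher and 5.53% lower, and of the members 4 higher and 1 lower. The median log2 fold change of the members was 0.56, against -0.03 for all genes. The deletion and antibody comparisons of CD8 cells share the untreated deficient libraries, so a shift of those 3 libraries alone moves them in opposite directions.

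Slamf6 fell from the 70.4 to 85.3 CPM of deficient CD8 cells to 31.1, 33.5 and 32.7 CPM in treated ones, slightly below the floxed libraries. The log2 fold change was -1.28 ± 0.14 (2.42-fold lower, edgeR adjusted p = 7.27e-06). Cd244a stood at 115, 111 and 108 CPM in treated CD8 cells, above every library of the other 5 groups. Its log2 fold change of 2.13 ± 0.21 (a fold of 4.37, edgeR adjusted p = 2.39e-06) was the largest of the 8 members.

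Slamf7 was at 208, 186 and 153 CPM in treated CD8 cells, above all floxed and deficient CD8 libraries. It was higher than in deficient cells by 1.41 ± 0.21 on the log2 scale (edgeR adjusted p = 0.000202). Slamf1 was at 77.9, 80.3 and 62.3 CPM and higher by 1.31 ± 0.23 (edgeR adjusted p = 0.000666), with libraries that overlapped the floxed ones. Cd48 was at 403, 428 and 369 CPM, its highest levels in CD8 cells, and higher by 0.90 ± 0.14 (edgeR adjusted p = 0.000255).

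Cd84 (0.17 ± 0.15), Ly9 (-0.17 ± 0.14) and Sh2d1a (0.23 ± 0.19) were not called. The 5 calls held in all 15 alternative settings, including the covariate fit, without treated replicate 2, in which ribosomal-like transcripts were most frequent, and without each other library. Natural killer cells also carry Cd244a and Slamf7. The summed level of 7 natural killer cell markers was 184 to 197 CPM in deficient and 356 to 397 CPM in treated CD8 cells, a list that includes genes of cytotoxic T cells such as Gzma and Eomes. Of its defining members, Ncr1 was at 0.766 to 1.43 CPM in deficient and 0.524 to 1.38 CPM in treated CD8 cells, and Klrb1c at 17.1 to 20.9 and 4.97 to 10.8 CPM. The part of natural killer cells in the result was not tested. Between deficient and treated CD8 cells 10 of 13 macrophage genes were called lower and 1 higher. Their sum, used as covariate, had a mean of 2213 CPM in deficient and 1151 CPM in treated cells. Means of Lyz2 (857 to 139 CPM), Csf1r (240 to 35.1), Adgre1 (53.3 to 13.4), Cd68 (60.2 to 19.2) and C1qa (45.4 to 14.8) fell by larger factors. The covariate thus followed these markers only in part. The dendritic cell marker sums were 525 to 1017 CPM in deficient and 200.4 to 339 CPM in treated libraries. The T cell marker sums were 2346 to 2562 CPM in deficient and 3697 to 4035 CPM in treated CD8 cells, higher beside the 4 members called higher. Of the 7 T cell genes, 2 were called higher. The part of the dendritic and T cell share in the result was not tested. With covariates the log2 fold changes were -1.35 for Slamf6, 1.86 for Cd244a, 1.23 for Slamf7, 0.92 for Slamf1 and 0.94 for Cd48.

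In CD4 cells no member was called with the antibodies, in a comparison where 0.0852% of all genes were called higher and 0.0568% lower. The median log2 fold change of the members was 0.17, against -0.01 for all genes. Slamf1 was at 151, 138 and 154 CPM in treated CD4 cells, above the 93.8 to 105 CPM of deficient cells and above every other library of the series. Its log2 difference of 0.59 ± 0.22 had an adjusted p of 0.302 by edgeR, with a range of 0.0217 to 0.676 over 15 alternatives. Unadjusted, 3 members (Slamf1, Cd244a and Sh2d1a) had an edgeR p under 0.05. DESeq2 and limma voom called none of the 8 either, and the fit without a filter on low counts called Slamf1.

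Slamf6 was at 133, 93.4 and 99.3 CPM in treated CD4 cells and overlapped the deficient ones (0.05 ± 0.13, edgeR adjusted p = 0.931). Cd244a was at 8.81, 14.8 and 10.7 CPM, its lowest levels of the series (-0.53 ± 0.23, edgeR adjusted p = 0.392). Slamf7 was at 61.4, 81.6 and 59.6 CPM (0.22 ± 0.21, edgeR adjusted p = 0.74). Cd84 (0.23 ± 0.15), Cd48 (0.12 ± 0.14), Ly9 (-0.03 ± 0.14) and Sh2d1a (0.41 ± 0.20) completed the family.

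The antibody effect itself differed between CD8 and CD4 cells for 2 members, where 0.575% of all genes were called as more positive in CD8 and 0.227% as more negative. Slamf6 differed by -1.32 ± 0.19 on the log2 scale (edgeR adjusted p = 0.00157) and Cd244a by 2.66 ± 0.32 (edgeR adjusted p = 0.00015). Both were called in all 20 alternative settings. Slamf7 (1.19 ± 0.30, edgeR adjusted p = 0.0708) and Cd48 (0.77 ± 0.20, edgeR adjusted p = 0.0753) had differences of some size that did not pass.

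CD8 and CD4 cells of the same condition were compared next. In floxed mice, Cd244a and Sh2d1a were higher in CD8 and Slamf6, Slamf7, Cd84 and Ly9 in CD4 cells, so 2 members were called higher and 4 lower, with 18.9% and 20.2% of all genes called in these directions. The log2 fold changes of CD8 against CD4 cells were 1.48 ± 0.21 for Cd244a, -1.32 ± 0.14 for Slamf6, -0.93 ± 0.21 for Slamf7, -1.81 ± 0.15 for Cd84 and -0.63 ± 0.14 for Ly9. Sh2d1a, the adaptor, stood at 40.6, 58.0 and 56.1 CPM in the CD8 libraries and 41.4, 32.8 and 33.1 CPM in the CD4 libraries, a log2 difference of 0.53 ± 0.19 (edgeR adjusted p = 0.0363). Its 2 groups overlapped, and leaving out floxed CD8 replicate 2 (0.43) or 3 (0.47) or floxed CD4 replicate 2 (0.47) or 3 (0.48) ended the call. With the marker sums as covariates only Slamf6 (-1.66) was called of these 6, and Cd84 was at -1.32. That fit called 2 of the 8 members, both lower in CD8 cells, the other being outside these 6. The macrophage marker sums of floxed CD8 and CD4 cells were far apart.

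In deficient mice 2 members were called higher and 3 lower in CD8 than in CD4 cells, with 6.21% and 9.39% of all genes. Slamf1 differed by -1.74 ± 0.23 on the log2 scale (edgeR adjusted p = 2.73e-05) and Cd84 by -0.64 ± 0.15 (edgeR adjusted p = 0.0057). Slamf6 (-0.43 ± 0.13, edgeR adjusted p = 0.0358), Cd244a (0.68 ± 0.22, edgeR adjusted p = 0.0426) and Sh2d1a (0.57 ± 0.19, edgeR adjusted p = 0.049) were near the threshold. With the marker sums as covariates Slamf1 (-2.39) was called and Cd84 (-0.50) was not. Slamf6 (-0.54 ± 0.21), Cd244a (0.65 ± 0.29) and Sh2d1a (0.57 ± 0.29) were not called in that fit either. Each of the 3 calls was also lost when single libraries were left out. For Slamf6 these were deficient CD8 replicates 2 (-0.35) and 3 (-0.43) and deficient CD4 replicates 2 (-0.43) and 3 (-0.37). For Cd244a they were deficient CD8 replicates 2 (0.54) and 3 (0.67) and all 3 deficient CD4 replicates (0.62 to 0.71), and for Sh2d1a all 3 deficient CD8 replicates (0.47 to 0.63) and deficient CD4 replicates 1 (0.49) and 2 (0.48).

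In treated mice 2 members were called higher and 3 lower in CD8 cells, with 9.36% and 11% of all genes. Cd244a was 10.1-fold higher in CD8 cells (log2 3.33 ± 0.23, edgeR adjusted p = 8.17e-09) and Slamf7 2.72-fold higher (1.44 ± 0.21, edgeR adjusted p = 8.36e-05). Slamf6 was 3.36-fold lower (-1.75 ± 0.14, edgeR adjusted p = 6.26e-08), Slamf1 lower by 1.02 ± 0.22 on the log2 scale and Cd84 by 0.71 ± 0.15. With the marker sums as covariates Cd84 was at -0.45 and not called, and Slamf1 was at -2.07 and called. Slamf7 was thus lower in CD8 than in CD4 cells of floxed mice and higher in those of treated mice. In the fit with covariates it was at -0.77 and not called in floxed mice, and at 1.535 and called in treated mice.

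Slamf6 was then set against Slamf7 and Cd244a within each library, as the log2 ratio of counts per exon length (0.5 counts added), which does not depend on the scaling of libraries. The ratio of Slamf6 to Slamf7 was -3.02, -2.91 and -2.68 in floxed, -0.64, -1.46 and -1.01 in deficient and -3.98, -3.71 and -3.47 in treated CD8 cells. In CD4 cells it was -2.43, -2.28 and -2.73 in floxed, 0.20, -0.62 and -0.54 in deficient and -0.13, -1.05 and -0.51 in treated libraries. In both cell types every deficient library had a higher ratio than every floxed one, and in CD8 cells the treated libraries were below all others.

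The level of such a ratio depends on the length taken for each gene, which for Slamf6 exceeds its coding transcripts, so a ratio above or below 0 does not say which gene is more abundant. Differences between groups do not depend on it. The deletion difference in the log2 ratio was 1.83 in CD8 and 2.16 in CD4 cells, and that of the antibodies -2.68 in CD8 and -0.24 in CD4 cells. An exact two-sided permutation test of 3 against 3 libraries cannot go below p = 0.1, which the first 3 of these reached, while the last had p = 0.6. With libraries permuted within each cell type, the mean deletion difference was 2.00 (exact permutation p = 0.005, the smallest it can give, and 0.0225 adjusted over the 18 ratio tests). This test takes CD8 and CD4 pools as independent, and the labels do not tell if they share mice. If they do, this p may be too small. CD8 against CD4 cells, permuted within the 3 conditions, differed by -1.42 (exact permutation p = 0.00075, adjusted 0.00675). The difference by condition was -0.39 in floxed mice, where libraries overlapped (exact permutation p = 0.2), -0.72 in deficient mice and -3.16 in treated mice (exact permutation p = 0.1 each), so treated mice carried most of it.

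In CD4 cells Slamf7 was called in the deletion and Slamf6 was not, and the macrophage markers that moved with Slamf7 there are given above. In CD8 cells Slamf6 and Slamf7 were each called, in opposite directions.

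The log2 ratio of Slamf6 to Cd244a was -2.24, -2.41 and -2.00 in floxed, 0.89, 0.07 and 0.48 in deficient and -3.04, -2.87 and -2.87 in treated CD8 cells. In CD4 cells it was 1.36, 0.42 and 0.09 in floxed, 1.56, 1.53 and 1.60 in deficient and 2.75, 1.498 and 2.06 in treated libraries. Deficient CD8 libraries had the highest ratios of the CD8 groups, and these overlapped those of floxed CD4 cells. The Cd8a found in floxed CD4 libraries, given with Cd244a above, is a limit of their ratios too.

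The deletion difference was 2.70 in CD8 and 0.95 in CD4 cells, and that of the antibodies -3.41 and 0.54, with exact permutation p = 0.1 (the smallest for 3 against 3) for the first 3 and 0.4 for the last. Within both cell types the mean deletion difference was 1.82 (exact permutation p = 0.005, the smallest possible, adjusted 0.0225). This p also takes CD8 and CD4 pools as independent. CD8 against CD4 cells differed by -2.98 within conditions (exact permutation p = 0.00025, the smallest possible, adjusted 0.0045), and by -2.84 in floxed, -1.08 in deficient and -5.03 in treated mice.

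**Figure D4:**
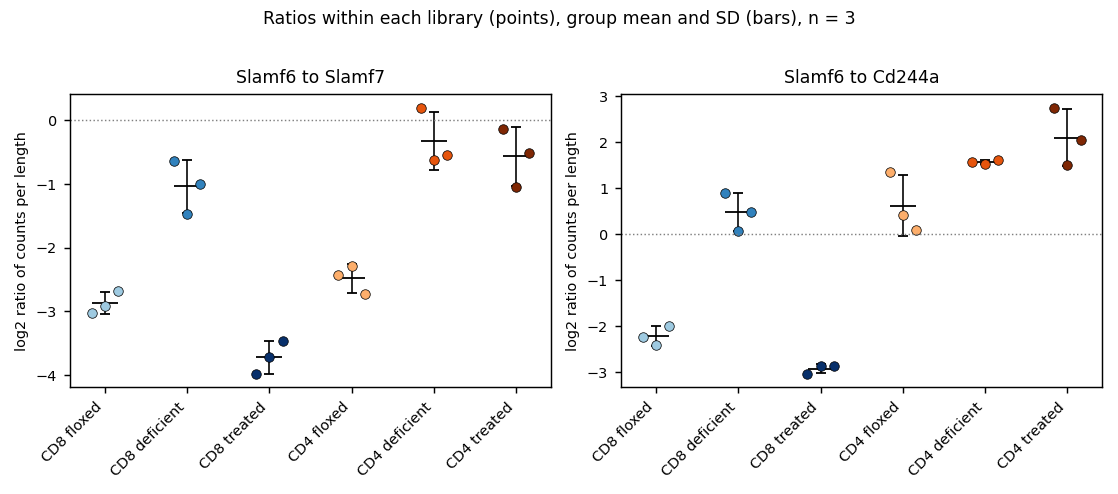
The vertical axis is the log2 ratio of counts per exon length within a library, points are libraries, and the dash and bar are the group mean and SD (n = 3). Both ratios are highest among CD8 groups in deficient cells (means of -1.04 and 0.48) and lowest in treated cells (-3.72 and -2.93).

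Slamf6 and Cd244a mirrored each other across the series. The 6 libraries of floxed and treated CD8 cells held 31.1 to 37.1 CPM of Slamf6 and 65.0 to 115 CPM of Cd244a. The 12 libraries of deficient CD8 cells and all CD4 cells held 70.4 to 133 CPM of Slamf6 and 8.81 to 34.6 CPM of Cd244a. Neither range met the other, so no correlation over all libraries is given for the pair.

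**Figure D5:**
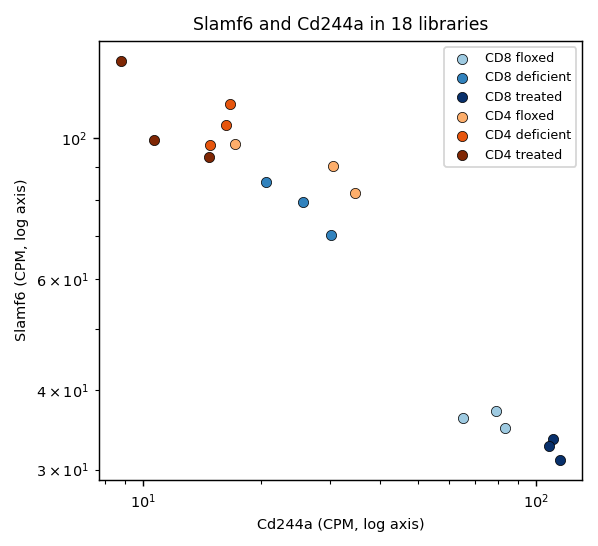
Each point is a library, with Cd244a on the horizontal and Slamf6 on the vertical axis, both in CPM on log scales. The floxed and treated CD8 libraries lie together at low Slamf6 (31.1 to 37.1 CPM) and the other 12 at 70.4 CPM or more.

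Lists of stem-like T cell genes (such as Tcf7, Lef1, Id3 and Bach2) and of terminally differentiated T cell genes (such as Havcr2, Entpd1, Gzmb and Prf1) were counted beside them. Both lists were chosen with earlier results of these data known, so their counts are no independent support. In deficient CD8 cells 7 of 11 stem-like genes were called higher and 0 lower (median log2 fold change 1.73), and 0 of 12 terminal genes were called higher and 11 lower (-1.93), where 9.65% of all genes were called higher and 9.61% lower. With the antibodies 8 stem-like genes were called lower (-1.54) and 9 terminal genes higher (1.97), where the shares of all genes were 5.53% lower and 8.25% higher. In the CD4 deletion 3 stem-like genes were called higher (1.08) and 3 terminal genes lower (-0.44), against 4.61% and 7.06% of all genes. With the antibodies in CD4 cells 0 stem-like genes were called (-0.74) and 1 terminal gene was called higher (0.28), against 0.0852% of all genes called higher and 0.0568% lower. Both medians had the same sign as in CD8 cells. The medians over all genes are those given with each comparison.

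Genes with the pattern most like a member were taken by Pearson r of log2 CPM over the 18 libraries among 9970 genes with at least 5 CPM on average. These r values read mostly differences between the 6 groups, whose libraries share cell type, treatment and cell admixture. Nearest to Slamf6 were Pecam1 (r = 0.96), the adhesion molecule CD31, Ighm (0.955), the constant region of IgM, Nt5e (0.952), the ectonucleotidase CD73, and Tmem50b (0.934). Nearest to Cd244a were Prf1 (0.947), the pore-forming protein of cytotoxic granules, Adamts14 (0.944), Nkg7 (0.933), a cytotoxic granule protein, and the chemokine Ccl4 (0.931).

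Slamf7 was closest to Ctsd (0.941), a lysosomal protease, Efhd2 (0.927), Ugt1a7c (0.917) and Tpm3 (0.908), a tropomyosin. Sh2d1a was closest to Rida (0.928), Mrpl45 (0.923), a mitochondrial ribosomal protein, Ccdc43 (0.891) and Trbc2 (0.876), a constant region of the T cell receptor beta chain. Ranked by Spearman's rho in place of r, Ctsd was again first for Slamf7, Mrpl45 was first and Rida at rank 3 for Sh2d1a, and Ighm was at rank 250 for Slamf6.

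Partners of the family were read from a list of 28 genes, of which 27 were tested. In the CD8 deletion 1 was called higher and 5 lower, with a median log2 fold change of -0.11, against 9.65% of all genes called higher and 9.61% lower. Ptpn11 (SHP-2), a phosphatase that binds the receptors' tails, fell by 0.47 ± 0.15, Icos, a co-stimulatory receptor, by 1.15 ± 0.21, Lcp2 (SLP-76), a signalling scaffold, by 0.54 ± 0.12 and Zap70, a T cell receptor kinase, by 0.58 ± 0.16 on the log2 scale. With the antibodies 4 were called higher and 0 lower in CD8 cells (median 0.13), against 8.25% and 5.53% of all genes, among them Icos (0.90 ± 0.21), Zap70 (0.59 ± 0.16) and Dok2 (0.74 ± 0.17), an adaptor that damps signalling. The melanoma and T cell marker sums that moved in the CD8 deletion, and the T cell sums that moved with the antibodies, are given above. Their part in these changes of partners was not tested.

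Fyn, the kinase that SAP brings in, was at 194 to 271 CPM in all 18 libraries and was not called in any deletion or antibody comparison. Inpp5d (SHIP-1), an inositol phosphatase, was not called in these 4 comparisons either, and was lower in CD8 than in CD4 cells of floxed mice (-0.76 ± 0.15), deficient mice (-0.53 ± 0.15) and treated mice (-0.76 ± 0.15). Cd2, a related adhesion receptor, was also lower in CD8 cells in each of the 3 conditions (-0.78 ± 0.17, -1.20 ± 0.17 and -0.90 ± 0.17). The adaptor gene Sh2d1b1 (EAT-2) was highest in floxed CD4 cells (9.42, 13.04 and 12.7 CPM), against at most 7.89 CPM in the other 15 libraries. Sh2d1b2 was at most 0.904 CPM and was not tested, and Zbtb16, a transcription factor of innate-like T cells, was at most 4.98 CPM.

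In the CD4 deletion 1 gene of the list was called higher and 6 lower (median -0.14), against 4.61% and 7.06% of all genes. Slamf8 and Slamf9, further family members that are known from macrophages and dendritic cells, were among the lower ones. Slamf8 was at 155, 124 and 196 CPM in floxed and 18.2, 68.3 and 46.1 CPM in deficient CD4 cells (-1.84 ± 0.48, edgeR adjusted p = 0.0225). It was at 3.53 to 17.0 CPM in all 9 CD8 libraries. Slamf9 was at 82.6, 66.6 and 154 CPM in floxed and 13.6, 16.5 and 27.4 CPM in deficient CD4 cells (-2.42 ± 0.52, edgeR adjusted p = 0.00794). Floxed CD4 replicate 3 was the highest library for Slamf8, Slamf9 and the macrophage marker sum alike.

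Ptpn6 (SHP-1), the other phosphatase, fell by 0.92 ± 0.17 and Dok2 by 1.05 ± 0.17 in deficient CD4 cells, Ptpn1, a phosphatase, by 0.57 ± 0.11, while Prkcq (protein kinase C theta), which acts downstream of SAP and Fyn, rose by 0.75 ± 0.15. Floxed replicate 3 was the highest CD4 library for Ptpn6 (562 CPM), Dok2 (448 CPM) and Ptpn1 (248 CPM), as for the macrophage marker sum. For Prkcq, floxed replicate 3 was the lowest CD4 library (107 CPM), as for the T cell marker sum (1477 CPM). The part of macrophages in these falls and in the rise of Prkcq was not tested. With the antibodies 0 of the 27 were called in CD4 cells by edgeR.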

How the data were processed

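Raw counts per gene were deposited, with a separate table for each library. Per the file headers, the authors made them with featureCounts 1.5.1, reverse-stranded (option -s at 2), on Ensembl release 87. The submitters' processing notes name STAR, featureCounts, DESeq2 and GRCm38. Of the 49671 IDs, 49326 had a symbol in GENCODE M21. A single edgeR 4.0.16 model (R 4.3.3) covered the 18 libraries, with filterByExpr, TMM and a robust quasi-likelihood fit. It had 12 residual degrees of freedom, tested 14080 genes and was tested on simulated data. Alternatives used DESeq2 1.42.0 and limma 3.58.1 (voom).

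The members and lists were chosen with earlier results of these data known. Named were all members, 10 partners fixed by name, up to 3 further called partners per comparison, called genes between the receptors, and the 4 genes nearest in pattern to each of 4 members. Ratios were tested by exact permutation. The floor of 3 counts covers counting error only.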

Additional observations from a re-analysis of the deposited data

Results flagged for a closer look

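Of the 8 members, 4 had a deletion effect that differed between CD8 and CD4 cells by the interaction term of the edgeR fit. Values are CD8 minus CD4 effects on the log2 scale. Slamf1 differed by -1.55 ± 0.31 (SE, edgeR adjusted p = 0.00262). It was lower in deficient than in floxed CD8 cells, while in CD4 cells its mean was higher without a call. Slamf6 differed by 0.90 ± 0.19 (edgeR adjusted p = 0.00366), Slamf7 by 1.18 ± 0.30 (edgeR adjusted p = 0.0127) and Cd84 by 1.17 ± 0.21 (edgeR adjusted p = 0.000971).

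The antibody effect differed between the cell types for Slamf6, by -1.32 ± 0.19 (edgeR adjusted p = 0.00157), and for Cd244a, by 2.66 ± 0.32 (edgeR adjusted p = 0.00015). In CD8 cells Slamf6 was lower and Cd244a higher with the antibodies, and in CD4 cells neither was called. The macrophage and melanoma marker sums, which differ between the groups compared, are given in the report. With both sums as covariates none of the 4 deletion differences was called (Slamf1 -0.27, Slamf6 1.12, Slamf7 1.07 and Cd84 0.83), while the antibody differences of Slamf6 (-1.39) and Cd244a (2.70) were. Over all genes that fit called 157 deletion differences, against 1634 without covariates, and 215 antibody differences, against 113.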

How the results depend on the processing

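Scaling, filters, another test (DESeq2 or limma voom), fits of 1 cell type, the replicate number as a block, marker covariates, the 3 ribosomal-rich libraries and each single library were varied 1 at a time. The number of members called moved by more than 1.5 times as follows. With the macrophage and melanoma marker sums as covariates it went from 5 to 1 in the CD8 deletion, from 3 to 0 in the CD4 deletion, from 4 to 0 in the deletion difference between cell types, from 6 to 2 between floxed and from 5 to 1 between deficient CD8 and CD4 cells. That fit has fewer residual degrees of freedom, and the covariates differ between the groups. Its calls fell over all genes too, from 2712 to 121 in the CD8 deletion, 1643 to 10 in the CD4 deletion and 1634 to 157 in the deletion difference. Between floxed CD8 and CD4 cells they fell from 5506 to 674, and between deficient ones from 2196 to 1531. Without a filter on low counts the number of members called went from 0 to 1 in the CD4 antibody comparison. It went from 2 to 4 in the antibody difference, which was also 4 with DESeq2. Without the 3 ribosomal-rich libraries 3 members in place of 5 were called between deficient CD8 and CD4 cells. Leaving out 1 library gave 3 to 5 in the CD8 deletion and 2 to 4 between deficient CD8 and CD4 cells. The causes were not tested. The 5 calls of CD8 cells with the antibodies were kept in all 15 settings.

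Values that changed sign had no call in either setting. They were Sh2d1a in the CD8 deletion (-0.064 without the ribosomal-rich libraries, -0.068 to 0.17 leaving out 1 library) and in the CD4 deletion (-0.034 with limma voom, -0.14 without the ribosomal-rich libraries, -0.16 to 0.15 leaving out 1 library), and Slamf1 in the CD4 deletion with covariates (-0.32). In CD4 cells with the antibodies they were Slamf7 with covariates (-0.010), Ly9 with covariates (0.069) or without the ribosomal-rich libraries (0.0020), and, leaving out 1 library, Slamf6 (-0.11 to 0.14), Slamf7 (-0.042 to 0.37), Ly9 (-0.16 to 0.15) and the ratio of Slamf6 to Slamf7 (-0.46 to 0.020).

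Same-numbered libraries were correlated in their deviations from group means at over 0.1 in all 3 numbers only between treated CD8 and CD4 cells (0.105, 0.103 and 0.289), and the labels do not say that numbers mark shared animals. With the replicate block that comparison kept its 5 calls, and between deficient CD8 and CD4 cells 4 in place of 5 members were called, Sh2d1a being lost (0.57). Depth did not limit the members, which had at least 49 counts in each library, but 3 libraries a group limit the ratio tests to p = 0.1 or more by exact permutation within a cell type.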
